A study of Mus musculus with 6 samples.

Results

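Acod1, the gene of the enzyme that makes itaconate, and 8 genes of the tricarboxylic acid cycle (Cs, Idh1, Idh2, Idh3a, Sdha, Fh1, Mdh1 and Mdh2) were followed in mouse bone marrow-derived macrophages given lipopolysaccharide (LPS), with and without a vector for Glul, the gene of glutamine synthetase. The 9 genes were taken by symbol from the 24752 genes of the deposited expression table, and all 9 were found and passed the filter on low values. Expression was given as FPKM, fragments scaled by exon length and by the total of the library, so levels of different genes can be compared per length. LPS is a component of the bacterial outer membrane that acts through Toll-like receptor 4. In cells with LPS, Acod1 rose about 23.0-fold against control. As deposited, 7 of the 8 cycle genes fell, with log2 changes of −0.42 to −1.57, most of all Idh1. Of all genes tested 68.0% fell, and the median gene was lower by 0.50. Relative to the median gene 3 of the 8 were lower, Idh1, Idh2 and Fh1, and 1 was higher, Cs. On that scale 32.2% of all genes tested were lower and 34.6% higher. Between LPS cells labelled as overexpressing Glul and other LPS cells, none of the 9 genes passed the test. Over all genes tested 1.1% did.

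The cycle oxidises acetyl units in the mitochondrion: citrate synthase makes citrate, the isocitrate dehydrogenases lead on to 2-oxoglutarate, and succinate dehydrogenase, fumarase and malate dehydrogenase lead from succinate back to oxaloacetate. In macrophages stimulated with LPS, aconitate decarboxylase, the product of Acod1, draws cis-aconitate out of the cycle and makes itaconate, which inhibits succinate dehydrogenase and modifies cysteines of regulatory proteins. Idh1 and Mdh1 encode cytosolic forms, which work outside the cycle proper, and the other 6 cycle genes encode mitochondrial enzymes or subunits.

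The 6 libraries formed 3 groups of 2, labelled B and C, and where 2 values are given for a group that of B comes before that of C. Glul_LPS cells were labelled as overexpressing Glul and treated with LPS, LPS cells as treated with LPS, and control cells as control. All cells were bone marrow-derived macrophages differentiated for 7 days from marrow of mice aged 8 to 10 weeks and cultured with 10 ng/ml M-CSF. Lentiviral vectors, control or carrying Glul, were applied for 36 h, and LPS was given at 100 ng/ml for 3 h. The labels do not state which vector the LPS and control libraries carried, the strain of the mice, or whether B and C stand for different animals or cultures. Each p-value is thus relative to the spread between libraries, which may be technical. No group had the Glul vector without LPS.

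The depth recovered from the values was 15649764 to 18691669 fragments per library. Glul itself had 37.2 and 37.7 FPKM in the Glul_LPS libraries, 30.6 and 33.4 FPKM in the LPS libraries, and 140 FPKM in both control libraries. The libraries labelled as overexpressing Glul thus stood at 1.17 times the LPS libraries (95% interval 1.06 to 1.28), which did not pass the test (limma, adjusted p = 0.122), and below the control libraries. Among macrophage markers Lyz2, which encodes lysozyme, had 13200 to 18500 FPKM. Of the neutrophil markers 6 of 10 stayed under 1 FPKM in every library, among them Mpo and Elane, and all 6 lymphocyte markers did. S100a8 had 4.86 to 7.37 FPKM, with overlap between Glul_LPS and LPS. S100a9 had 1.58 and 0.734 FPKM in Glul_LPS, 3.21 and 3.7 FPKM in LPS, and 2.66 and 3.76 FPKM in control. Ngp had 0.24 and 0.105 FPKM in Glul_LPS, 1.27 and 0.909 FPKM in LPS, and 0.876 and 1.46 FPKM in control. Csf3r was higher in both Glul_LPS libraries than in both LPS libraries. S100a8, S100a9 and Ngp were named after their values were seen, and their part in the differences below was not tested. The summed level of the 7 dendritic cell markers was 18.3 to 23.3 FPKM in Glul_LPS, 36.7 to 38.9 FPKM in LPS and 38.4 to 42.8 FPKM in control libraries, nearly all of it Itgax. Of these 7 markers 5, among them Flt3 and Zbtb46, stayed under 1 FPKM in every library. Xcr1 had 0.91 and 1.05 FPKM in Glul_LPS, 1.09 and 1.3 FPKM in LPS, and 0.12 and 0.117 FPKM in control. Xcr1 was named after its values were seen, and the part of Itgax and Xcr1 in the differences below was not tested. The most abundant markers of the other lists were Csf3r (neutrophils, 44.6 to 63.7 FPKM), Pf4 (megakaryocytes, 19.5 to 33.4 FPKM), Nkg7 (lymphocytes, 0.14 to 0.505 FPKM) and Cpa3 (mast cells, 0.0387 to 0.152 FPKM). Pdgfrb, of the stromal list, had 4.60 and 5.66 FPKM in Glul_LPS, 3.95 and 3.02 FPKM in LPS, and 0.811 and 0.685 FPKM in control, with no overlap between groups. The other markers of that list had lower means in LPS than in control.

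The bases before the start sites are shown for 3 of the genes, Acod1 as the one that rose, Idh1 as the cycle gene that fell most and Cs as the cycle gene that changed least. They come from RefSeq (GRCm38.p6), 250 bases at most, stop before the annotated gene or the RefSeq start, whichever comes first, and have CpG dinucleotides in capitals. The Acod1 stretch is chr14:103046762-103046976 on the plus strand, that of Cs chr10:128337477-128337726 on the plus strand, and that of Idh1 chr1:65186501-65186729 on the minus strand.
Acod1: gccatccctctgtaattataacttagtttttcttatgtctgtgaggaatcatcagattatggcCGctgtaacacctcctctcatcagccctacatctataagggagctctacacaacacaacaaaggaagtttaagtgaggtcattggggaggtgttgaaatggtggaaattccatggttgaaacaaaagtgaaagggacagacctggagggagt
Cs: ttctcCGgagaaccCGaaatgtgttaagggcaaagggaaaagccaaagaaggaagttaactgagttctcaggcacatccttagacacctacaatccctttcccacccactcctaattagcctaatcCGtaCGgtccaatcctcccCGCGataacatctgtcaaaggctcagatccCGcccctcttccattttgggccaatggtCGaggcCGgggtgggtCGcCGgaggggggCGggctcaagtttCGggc
Idh1: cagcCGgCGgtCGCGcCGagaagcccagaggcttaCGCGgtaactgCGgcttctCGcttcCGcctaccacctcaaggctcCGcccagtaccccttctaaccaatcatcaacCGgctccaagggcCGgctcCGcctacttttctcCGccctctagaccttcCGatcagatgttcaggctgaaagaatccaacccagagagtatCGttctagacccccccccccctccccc

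The Acod1 stretch holds a single CpG, whereas those of Cs and Idh1 hold many. Over windows of 300 bases, from 250 before to 50 after each RefSeq start, Acod1 had 2 CpG and a GC content of 47.0%. The cycle genes had 14 (Fh1) to 27 (Mdh2) CpG per window, with 18 at Cs and 23 at both starts listed for Idh1. The median of all 32851 windows was 7, with quartiles of 3 and 20, and 14.1% of windows had fewer CpG than that of Acod1. Idh3a was not in the promoter table.

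**Figure D1:**
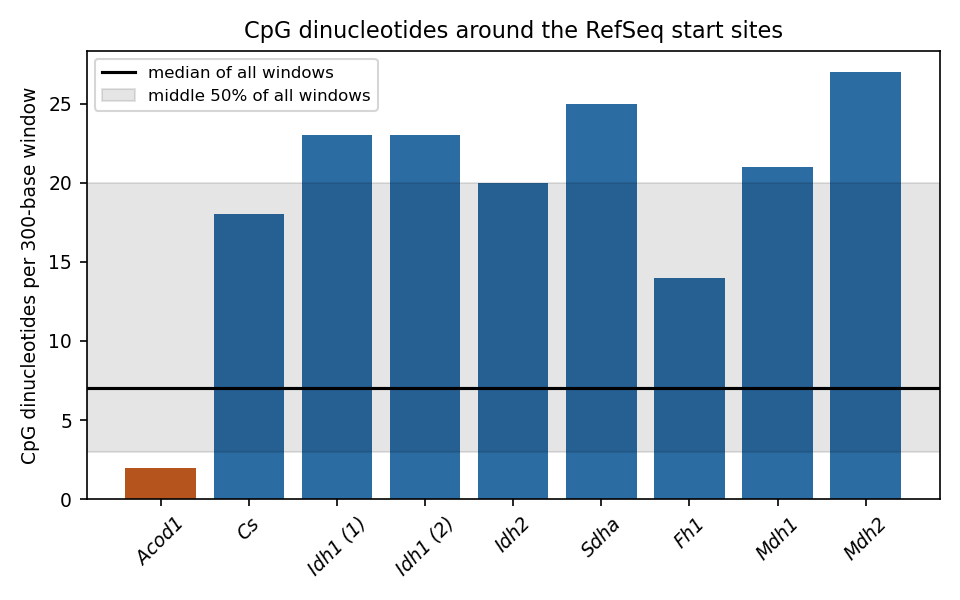
CpG dinucleotides (vertical axis, number per 300-base window) around the RefSeq start of each gene, with the median (line) and the middle of all windows between the quartiles (band). Acod1 has 2, below the lower quartile of 3, and the cycle genes have 14 to 27, above the median of 7.

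The same windows were searched on both strands for 6 motifs. NF-kB sites in 2 forms of 10 bases, the interferon response element of 10 bases, the NRF2 site TGACNNNGC, the E-box CACGTG and the C/EBP site TTGCNNAA had no match in the window of Acod1. Either NF-kB form, whose letters can match the same site, occurred in 2.34% of all windows, the interferon element in 3.44%, NRF2 in 12.4%, the E-box in 7.15% and C/EBP in 10.8%. The cycle genes had a C/EBP match in the window of Sdha and an NRF2 match in that of Mdh1, and no others. No match says only that these letters are not in these windows.

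Acod1 (ENSMUSG00000022126, 5 exons, chromosome 14, 103046977 to 103056573, plus strand, GRCm38) had 2721 and 2884 FPKM in the Glul_LPS libraries, 2753 and 2702 FPKM in the LPS libraries, and 149.1 and 93.1 FPKM in the control libraries. Every LPS-treated library lay far above both control libraries, and the Glul_LPS and LPS libraries overlapped. The values rested on 116286 to 121457 fragments per LPS-treated library, and on 7310 and 4233 in the control libraries. In bulk RNA, fewer cells making a transcript and less transcript per cell cannot be told apart.

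LPS against control asked how these macrophages responded to LPS. Acod1 rose by 4.52 on the log2(FPKM + 1) scale (SE 0.196, limma adjusted p = 4.22e-06), a ratio of 23.0 (95% interval 16.5 to 31.9). Of the 10962 genes tested, 52 had a higher log2 change. By FPKM, Acod1 ranked 11th and 10th among all genes in the Glul_LPS libraries, 12th in both LPS libraries, and 279th and 482nd in the control libraries. Its control libraries differed by 46.2% of their mean, the widest gap between replicates for any of the 9 genes. Glul_LPS against control gave 4.56 (adjusted p = 4.42e-06).

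**Figure D2:**
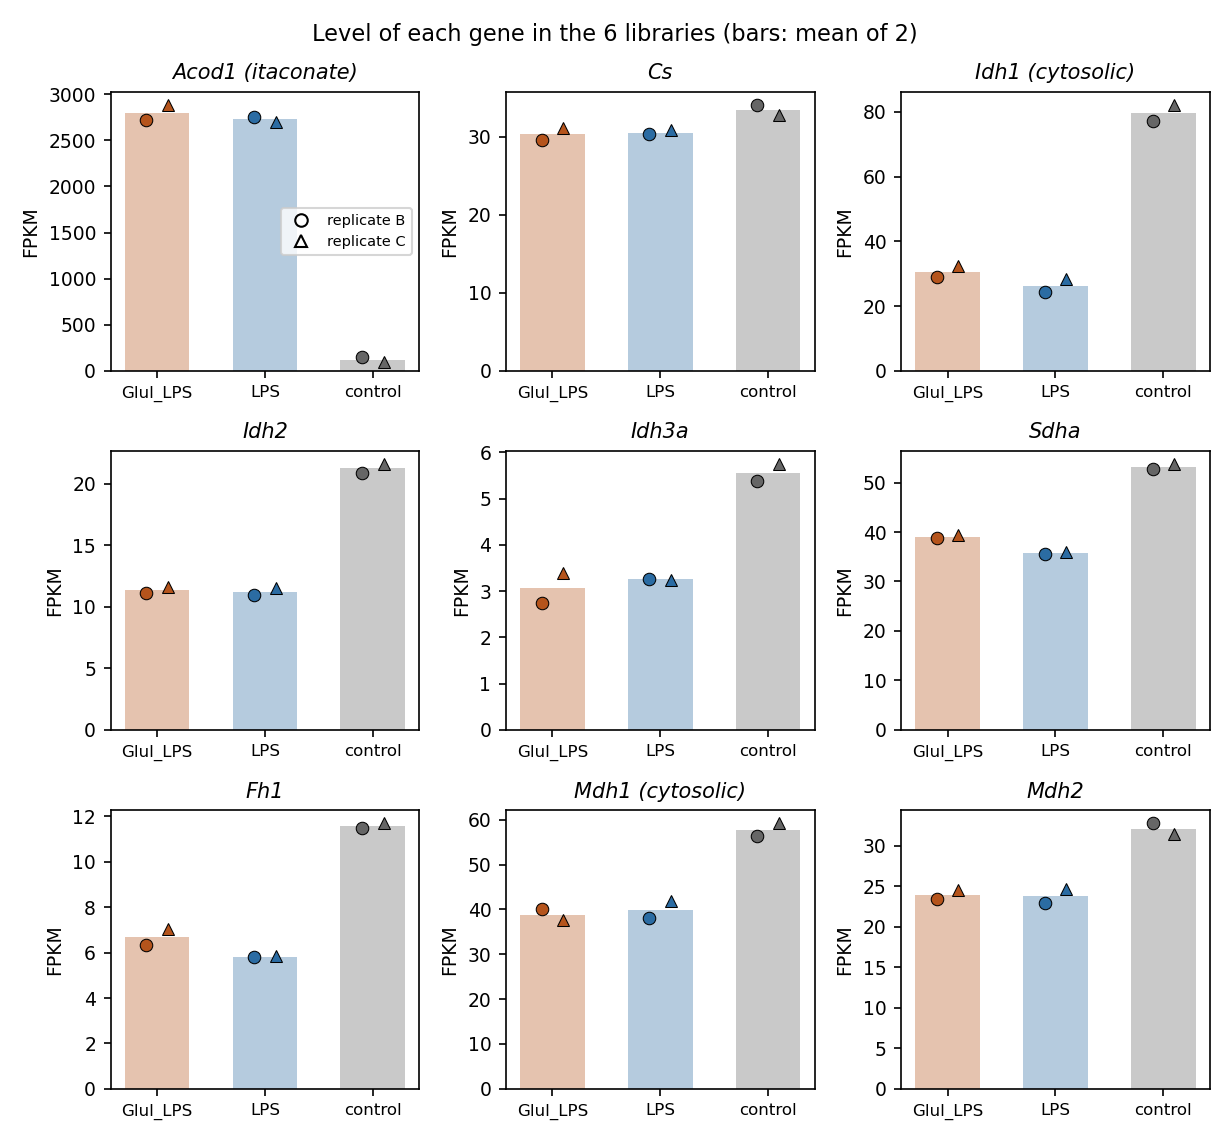
FPKM (vertical axis, from 0) of each gene in Glul_LPS, LPS and control cells, with bars for the mean of 2 libraries and a circle (B) and triangle (C) for each library. Acod1 lies at 2702 to 2884 FPKM in the LPS-treated libraries and 149.1 and 93.1 FPKM in control, and the cycle genes are lower as deposited in both LPS-treated groups than in control, though Cs is higher relative to the median gene.

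Acod1 was the most abundant of the 9 transcripts in each group, also in control. The summed FPKM of the 8 cycle genes was 180.8 and 186.9 in the Glul_LPS libraries, 171.0 and 182.0 in the LPS libraries, and 290.7 and 298.3 in the control libraries. Set against that sum, Acod1 stood at 15.0 and 15.4 times it in Glul_LPS, 16.1 and 14.8 times it in LPS, and 0.513 and 0.312 times it in control. The ratio was taken within a library, so that scaling of a library leaves it unchanged.

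As deposited, 1 of the 9 genes rose with LPS, 7 fell and Cs did not pass. Over all genes tested 85.2% passed, 17.1% higher and 68.0% lower, the libraries of the groups did not overlap for 92.5%, and the median gene was lower by 0.50 on the log2 scale. That median was −0.373 for genes with a mean of at least 5 FPKM, where all of the 9 genes but Idh3a lie, −0.126 with no filter, and −0.126 after quantile normalization. Each of these 9 changes is therefore also given relative to the median gene. Some genes of the lists further on are given as deposited only. For the relative scale, every library was centred on its median. On that scale 66.8% of genes passed, 34.6% higher and 32.2% lower. Of the 9 genes 2 were then higher, Acod1 (5.04) and Cs, and 3 lower, Idh1, Idh2 and Fh1. The 8 macrophage markers were split. Their summed level, mostly Lyz2, was 19900 to 21200 FPKM in Glul_LPS, 17400 to 18700 FPKM in LPS and 21900 to 22700 FPKM in control libraries. In LPS against control, 5 markers were lower in both LPS libraries than in both control libraries. The other 3 were higher, Cd14 at 2410 ± 125 FPKM in LPS and 1460 ± 122 FPKM in control (SD, n = 2 each), Fcgr1 at 179 ± 3.28 FPKM in LPS and 107 ± 0.394 FPKM in control, and Mertk at 28.5 ± 0.613 FPKM in LPS and 24.9 ± 1.61 FPKM in control. These 3 were named after their values were seen, and the part of the markers in the changes of the 9 genes was not tested.

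Cs (ENSMUSG00000005683, chromosome 10, 128337734 to 128362479), citrate synthase, which joins acetyl-CoA to oxaloacetate, had 30.3 and 30.8 FPKM in the LPS libraries, against 34.0 and 32.8 FPKM in the control libraries. The groups did not overlap, yet the log2 change of −0.12 (SE 0.05) missed the threshold (limma adjusted p = 0.0549), and relative to the median gene Cs was higher by 0.39 (adjusted p = 0.000606). It was the only one of the 8 cycle genes called higher relative to the median gene. With limma voom on recovered fragments it was called lower (−0.13, adjusted p = 0.0494). Of its 50-base stretches, 2.01% also lie in transcripts of Csl, so a small part of its fragments may belong there.

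Of the isocitrate dehydrogenases, Idh1 (ENSMUSG00000025950, chromosome 1, 65158616 to 65186500), the cytosolic form that uses NADP, had 24.3 and 28.2 FPKM in the LPS libraries, against 77.2 and 82.0 FPKM in the control libraries. The control libraries were about 3 times as high and did not overlap those with LPS. The log2 change was −1.57 (SE 0.089, limma adjusted p = 1.17e-05), a ratio of 0.337 (95% interval 0.291 to 0.391), and −1.05 relative to the median gene (adjusted p = 7.36e-05). Of all genes tested, 5.56% had a lower log2 change.

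Idh2 (ENSMUSG00000030541, chromosome 7, 80094846 to 80115392), the mitochondrial form that uses NADP, had 11.0 and 11.5 FPKM in the LPS libraries, against 20.9 and 21.6 FPKM in the control libraries. It fell by 0.86 (limma adjusted p = 1.89e-05) and, relative to the median gene, by 0.35 (adjusted p = 0.00164). Idh3a (ENSMUSG00000032279, chromosome 9, 54586334 to 54604661), the catalytic subunit of the NAD-dependent enzyme of the cycle, was the least abundant, at 3.27 and 3.24 FPKM in LPS against 5.37 and 5.74 FPKM in control. It fell by 0.62 (adjusted p = 0.000713), but not relative to the median gene (−0.11, adjusted p = 0.357). For both genes the LPS and control libraries did not overlap. Idh3a values rested on 267 to 509 fragments per library in these groups, and on 237 and 268 in Glul_LPS.

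The cytosolic form lost more than the mitochondrial one. Idh1 exceeded Idh2 by 2.6 and 2.78 times in the Glul_LPS libraries, 2.21 and 2.46 times in the LPS libraries, and 3.68 and 3.8 times in the control libraries, with no overlap between either LPS-treated group and control. For the malate dehydrogenases the shift was smaller, with Mdh1 at 1.7 and 1.53 times Mdh2 in Glul_LPS, 1.66 and 1.69 times in LPS, and 1.72 and 1.88 times in control. Here too the control libraries were the highest, but Glul_LPS B lay close to control B.

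Sdha (ENSMUSG00000021577, chromosome 13, 74322254 to 74350280), the catalytic flavoprotein of succinate dehydrogenase, the enzyme that itaconate inhibits, had 35.5 and 36.0 FPKM in the LPS libraries, against 52.7 and 53.7 FPKM in the control libraries. It fell by 0.56 (SE 0.044, limma adjusted p = 4.27e-05), with groups that did not overlap, but by 0.04 relative to the median gene (adjusted p = 0.414). Fh1 (ENSMUSG00000026526, chromosome 1, 175600374 to 175625635), fumarase, had 5.82 and 5.83 FPKM in LPS, against 11.5 and 11.7 FPKM in control. It fell by 0.88 (adjusted p = 3.44e-05) and by 0.37 relative to the median gene (adjusted p = 0.0033), and its groups did not overlap.

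Mdh1 (ENSMUSG00000020321, chromosome 11, 21556787 to 21572367), the cytosolic malate dehydrogenase of the malate-aspartate shuttle, had 38.0 and 41.8 FPKM in the LPS libraries, against 56.3 and 59.2 FPKM in the control libraries. Mdh2 (ENSMUSG00000019179, chromosome 5, 135778480 to 135790398), the mitochondrial form, had 22.9 and 24.7 FPKM in LPS, against 32.8 and 31.5 FPKM in control. Both were lower in each LPS library than in each control library. As deposited they fell by 0.52 (limma adjusted p = 0.00033) and 0.42 (adjusted p = 0.000549), but relative to the median gene neither passed, with −0.01 for Mdh1 and 0.10 for Mdh2. Exons of Mdh1 overlap those of Wdpcp over 2.03% of their bases.

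**Figure D3:**
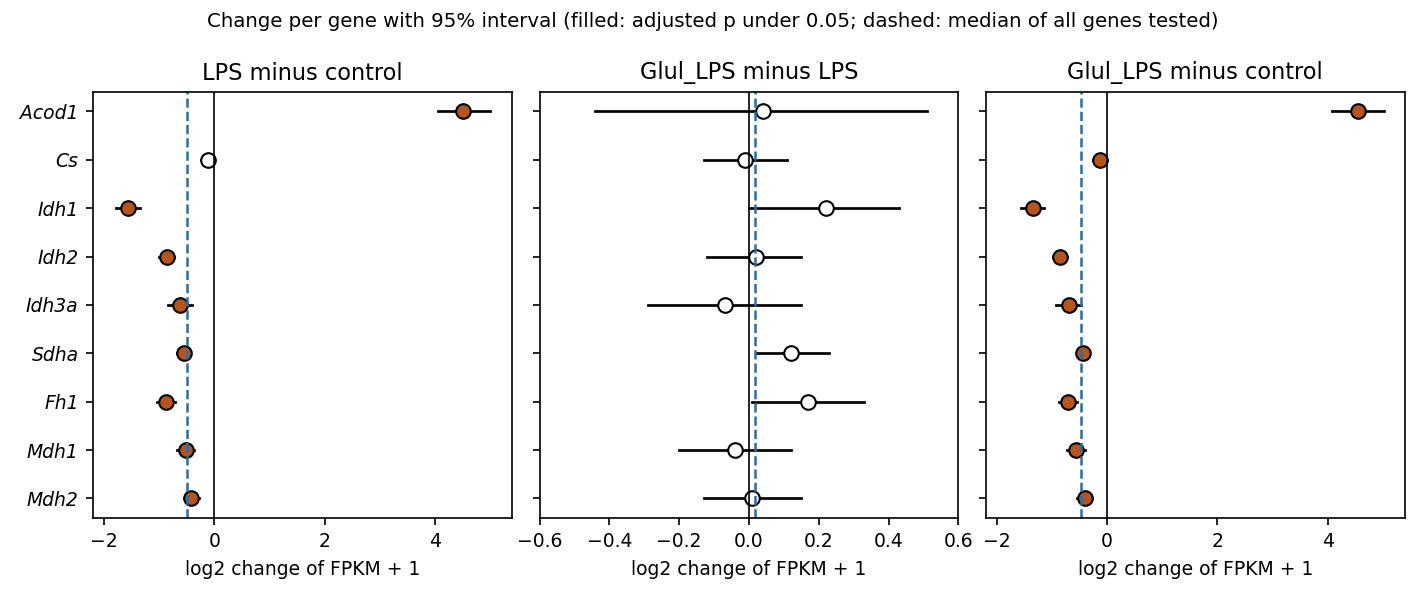
Change of each gene on the log2(FPKM + 1) scale (horizontal axes, with a narrower range for Glul_LPS minus LPS) with its 95% interval. Filled points passed the threshold, and the dashed line is the median of all genes tested, at −0.50 for LPS minus control, where Idh1 (−1.57) and Acod1 (4.52) lie farthest from it.

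The order of the levels within a group changed mainly at Idh1. In control it followed Acod1, at 79.6 ± 3.44 FPKM (SD, n = 2), ahead of Mdh1, Sdha, Cs, Mdh2, Idh2, Fh1 and Idh3a, and the libraries of neighbours in that order did not overlap. In LPS the order after Acod1 was Mdh1, Sdha, Cs, Idh1, Mdh2, Idh2, Fh1 and Idh3a, in which Idh1 (26.2 ± 2.77 FPKM) and Mdh2 (23.8 ± 1.27 FPKM) overlapped. In Glul_LPS it was Sdha, Mdh1, Idh1, Cs, Mdh2, Idh2, Fh1 and Idh3a, with overlap between Sdha and Mdh1 and between Idh1 and Cs.

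The make-up of the 8 cycle transcripts shifted with LPS, measured as the log2 ratio of each gene to their geometric mean in the same library. The ratio of Idh1 was 0.79 and 0.86 in the Glul_LPS libraries, 0.58 and 0.73 in the LPS libraries, and 1.49 and 1.54 in the control libraries. That of Cs was 0.83 and 0.80 in Glul_LPS, 0.90 and 0.86 in LPS, and 0.30 and 0.22 in control. Idh1 thus lost and Cs gained share in every LPS-treated library. The mean ratio in LPS minus that in control ranged from −0.25 (Fh1) to 0.31 (Mdh2) for the other 6 genes. As the ratios are taken against a mean that holds Idh1 itself, its fall by itself raises the ratios of the others.

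**Figure D4:**
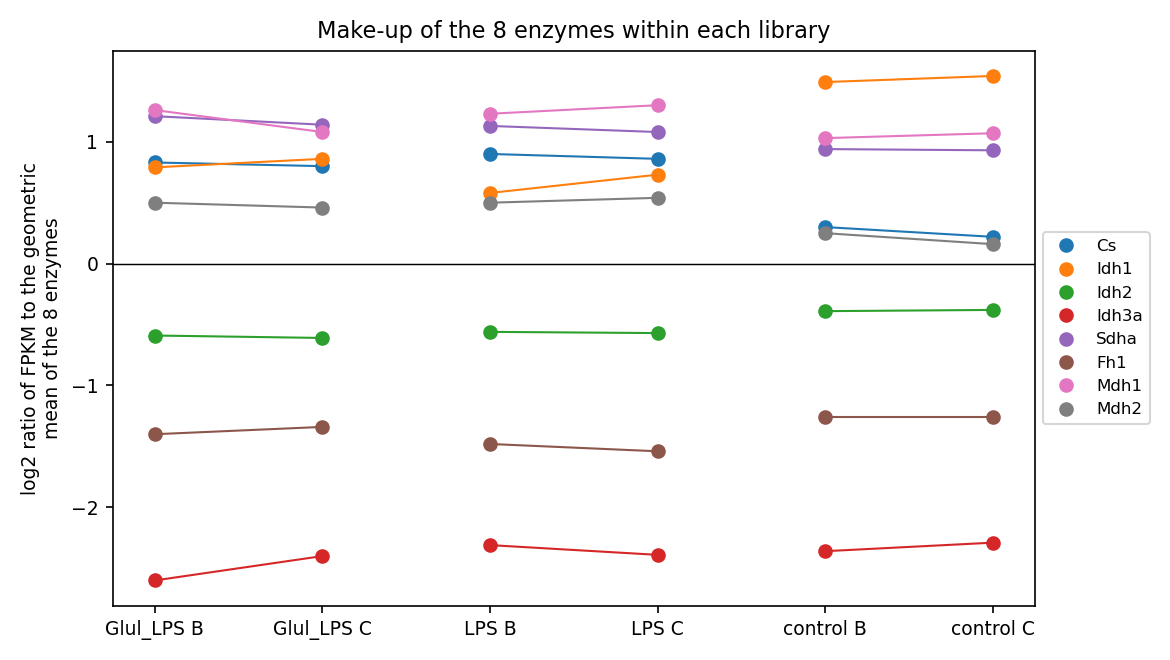
Log2 ratio of the FPKM of each of the 8 cycle genes to their geometric mean (vertical axis) in each of the 6 libraries, with lines joining the libraries of a group. Idh1 lies at 0.58 to 0.86 in the LPS-treated libraries and at 1.49 and 1.54 in control, while Cs lies at 0.80 to 0.90 and at 0.30 and 0.22.

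Glul_LPS against LPS bears on what the series was made to examine, the effect of glutamine synthetase on macrophages given LPS. Glul itself did not pass in this comparison (ratio 1.17, limma adjusted p = 0.122), and the labels do not state which vector the LPS libraries carried. None of the 9 genes passed the threshold (limma), where 1.1% of all genes tested did, 0.547% higher and 0.556% lower, and none passed with limma voom on recovered fragments. The largest differences were in Idh1, Fh1 and Sdha, with higher values in Glul_LPS. Idh1 had 28.9 and 32.3 FPKM in the Glul_LPS libraries, against 24.3 and 28.2 FPKM in the LPS libraries, a ratio of 1.16 (95% interval 1.00 to 1.35, limma adjusted p = 0.285). Fh1 had 6.34 and 7.05 FPKM in Glul_LPS, against 5.82 and 5.83 FPKM in LPS (ratio 1.13, 1.01 to 1.26, adjusted p = 0.258).

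Sdha had 38.7 and 39.3 FPKM in the Glul_LPS libraries, against 35.5 and 36.0 FPKM in the LPS libraries, a ratio of 1.09 (95% interval 1.01 to 1.17, limma adjusted p = 0.236). In these 3 genes both Glul_LPS libraries were above both LPS libraries, while in the other 6 the groups overlapped. Over all genes tested the 2 groups did not overlap for 47.0%, with Glul_LPS above LPS for 27.7%. The ratio of Acod1 was 1.03, with a wide interval of 0.739 to 1.43 (adjusted p = 0.949), which shares a spread with the control libraries. Fitted without the control libraries the interval was 0.928 to 1.14.

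For the other 5 genes the ratios of Glul_LPS to LPS were close to 1. Cs had 29.6 and 31.1 FPKM in the Glul_LPS libraries (ratio 0.993, 95% interval 0.913 to 1.08) and Idh2 had 11.1 and 11.6 FPKM (1.01, 0.921 to 1.11). Idh3a had 2.75 and 3.38 FPKM in Glul_LPS (0.952, 0.817 to 1.11), Mdh1 had 40.0 and 37.6 FPKM (0.974, 0.873 to 1.09) and Mdh2 had 23.5 and 24.5 FPKM (1.01, 0.916 to 1.11). The intervals of these 5 ratios run from 0.817 to 1.11. Within succinate dehydrogenase, the ratio of Sdha to the geometric mean of Sdhb, Sdhc and Sdhd was 1.15 and 1.29 in Glul_LPS, 1.10 and 1.02 in LPS, and 1.05 in both control libraries, highest in the Glul_LPS libraries. For Idh3a against Idh3b and Idh3g the ratio was 0.165 and 0.206 in Glul_LPS, 0.198 and 0.182 in LPS, and 0.196 and 0.201 in control, with overlap between all groups.

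Glul_LPS against control shares its control libraries with LPS against control, so its values are given beside the others and not as a repeat. All 8 cycle genes fell and Acod1 rose, where 84.3% of all genes tested passed, 16.9% higher and 67.4% lower, and the 2 groups did not overlap for 91.9%. The log2 change was −1.35 for Idh1, −0.85 for Idh2, −0.71 for Fh1, −0.69 for Idh3a, −0.56 for Mdh1, −0.44 for Sdha, −0.41 for Mdh2 and −0.13 for Cs. The call for Cs (limma adjusted p = 0.0431) was narrow: it held under 7 of 18 alternatives and was lost under 10, and after median centring Cs was called higher. Relative to the median gene, lower by 0.48, Cs was higher by 0.36 and Idh1, Idh2 and Fh1 were lower, where 65.9% of genes passed, 34.2% higher and 31.7% lower.

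Neighbouring genes of the pathway were counted over 5 lists with 48 tested genes, of which 8 rose and 38 fell with LPS as deposited, where 17.1% of all genes tested were called higher and 68.0% lower. Relative to the median gene 14 were higher and 10 lower, where 34.6% and 32.2% of all genes were. Of 12 other subunits of cycle enzymes, 11 fell as deposited, with a median of −0.52 against −0.50 over all genes tested, while relative to the median gene 4 were higher and 2 lower. Dld, the dihydrolipoamide dehydrogenase shared with other complexes, did not pass as deposited (0.07, limma adjusted p = 0.225). Relative to the median gene Dld was called higher (0.59, adjusted p = 9.21e-05), and it was named after its values were seen. Sdhb, the iron-sulfur subunit of succinate dehydrogenase, had 29.5 ± 2.84 FPKM in LPS and 54.1 ± 0.921 FPKM in control (SD, n = 2 each), a log2 change of −0.86. Sdhd, a membrane anchor (−0.49), and Ogdh, of the 2-oxoglutarate dehydrogenase complex (−0.63), fell as deposited and passed in neither direction relative to the median gene. Of the 4 assembly factors of succinate dehydrogenase, Sdhaf2 (−0.45) and Sdhaf4 (−0.42) fell as deposited and were called in neither direction relative to the median gene, and Sdhaf1 and Sdhaf3 stayed under the filter.

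All 12 tested genes of pyruvate entry fell with LPS as deposited, with a median of −0.65, where 68.0% of all genes tested did. Relative to the median gene 1 was higher and 3 lower, where 34.6% and 32.2% of all genes were. Pdha1, a catalytic subunit of pyruvate dehydrogenase, had 7.69 ± 0.0644 FPKM in LPS and 15.1 ± 1.63 FPKM in control (log2 change −0.88, limma adjusted p = 8.04e-05). The widest fall on this list was that of Pdk2, a kinase that inhibits the complex, at 0.586 ± 0.191 FPKM in LPS and 6.54 ± 0.0383 FPKM in control (−2.25, adjusted p = 4.38e-06), named after its values were seen. Pdhb (−0.58) and Dlat (−0.55), of the same complex, fell as deposited only, and Pdk3, another kinase, was called lower as deposited (−0.23) and higher relative to the median gene (0.29).

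Of 13 tested genes of the citrate, malate and glutamate branches, 11 fell and 2 rose with LPS, where 68.0% and 17.1% of all genes tested did. Relative to the median gene 4 were lower and 2 higher, where 32.2% and 34.6% of all genes were. Got1, the cytosolic aspartate aminotransferase of the malate-aspartate shuttle, fell most, with 39.8 ± 4.35 FPKM in LPS and 127 ± 0.266 FPKM in control (log2 change −1.65, limma adjusted p = 5.32e-06). Slc25a11, the 2-oxoglutarate carrier of the same shuttle, fell by 0.91. Of its aspartate-glutamate carriers Slc25a12 rose by 0.57, and by 1.08 relative to the median gene. Slc25a13 fell by 0.56 as deposited, but not relative to the median gene (−0.04, limma adjusted p = 0.779). Glud1, glutamate dehydrogenase, fell by 0.50 and Acly, which splits exported citrate, by 0.49, close to the median gene. Slc25a12 and Slc25a13 were named after their values were seen.

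Of 9 tested genes for the breakdown, transport and reported targets of itaconate and for the inducer Irf1, 6 rose and 2 fell with LPS as deposited, where 17.1% of all genes tested were called higher and 68.0% lower. Relative to the median gene 7 were higher and 1 lower, where 34.6% and 32.2% of all genes were. Clybl, of itaconate breakdown, fell by 0.50 as deposited, but not relative to the median gene (0.01, limma adjusted p = 0.916). Abcg2, a transporter, did not pass as deposited (−0.21, limma adjusted p = 0.0959). Relative to the median gene Abcg2 was called higher (0.31, adjusted p = 0.0288). Irf1, a transcription factor reported to induce Acod1, had 182 ± 9.81 FPKM in LPS and 18.8 ± 1.15 FPKM in control (log2 change 3.21, limma adjusted p = 4.07e-07). Nfkbiz, which encodes the regulator IkBzeta, had 120 ± 6.68 FPKM in LPS and 13.9 ± 0.735 FPKM in control (3.02). Nfe2l2, which encodes NRF2, had 60.7 ± 3.57 FPKM in LPS and 170 ± 10.4 FPKM in control (−1.47), and Keap1, its inhibitor and a protein that itaconate modifies, rose by 0.71. Clybl, Abcg2 and Keap1 were named after their values were seen. Sucnr1, the succinate receptor, was on the list and not found by symbol.

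Between Glul_LPS and LPS, 2 of the 48 listed genes passed, against 1.1% of all genes tested. Slc13a3, a sodium-coupled dicarboxylate transporter reported to take up itaconate, had 6.24 and 7.38 FPKM in the Glul_LPS libraries, 2.07 and 1.52 FPKM in the LPS libraries, and 0.923 and 0.62 FPKM in the control libraries. The groups did not overlap, in steps upward from control. The stromal marker Pdgfrb was ordered the same way, with log2 changes of 0.45 in Glul_LPS against LPS (limma adjusted p = 0.166) and 1.35 in LPS against control (adjusted p = 0.000106). Col1a1, Col3a1 and Dcn, the other stromal markers, had lower means in LPS than in control, and were named after their values were seen. They averaged 0.873, 0.265 and 0.708 FPKM in LPS, and 1.35, 0.357 and 0.982 FPKM in control. Their Glul_LPS and LPS libraries overlapped. The summed level of the 4 stromal markers was 6.44 to 8.28 FPKM in Glul_LPS, 5.0 to 5.66 FPKM in LPS and 3.11 to 3.77 FPKM in control. Most of it was Pdgfrb in the LPS-treated libraries. The part of any stromal marker in the values of Slc13a3 was not tested. Slc13a3 rose in Glul_LPS against LPS by 1.48 (SE 0.139, limma adjusted p = 0.0202), with mean FPKM in a ratio of 3.79, and with LPS against control by 0.66 (adjusted p = 0.004). The call against LPS held in 13 of 17 alternatives, whose adjusted p ran from 1.22e-06 to 0.103, and ended with no filter (0.0986) and without LPS B (0.0964), LPS C (0.0966) or Glul_LPS C (0.103).

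Atf3, a stress-induced transcription factor reported to mediate effects of itaconate, had 127 ± 2.54 FPKM in Glul_LPS and 163 ± 1.60 FPKM in LPS (SD, n = 2 each), and 98.6 ± 1.36 FPKM in control. Its log2 change was −0.35 in Glul_LPS against LPS (limma adjusted p = 0.0253) and 0.72 in LPS against control. The call against LPS held in 8 of 18 alternatives, with adjusted p from 0.000648 to 0.149, and ended when any 1 of the 6 libraries was left out. Irf1 had 147 ± 9.99 FPKM in Glul_LPS, against 182 ± 9.81 FPKM in LPS, and the log2 change of −0.31 missed the threshold (limma adjusted p = 0.109), but passed with limma voom.

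**Figure D5:**
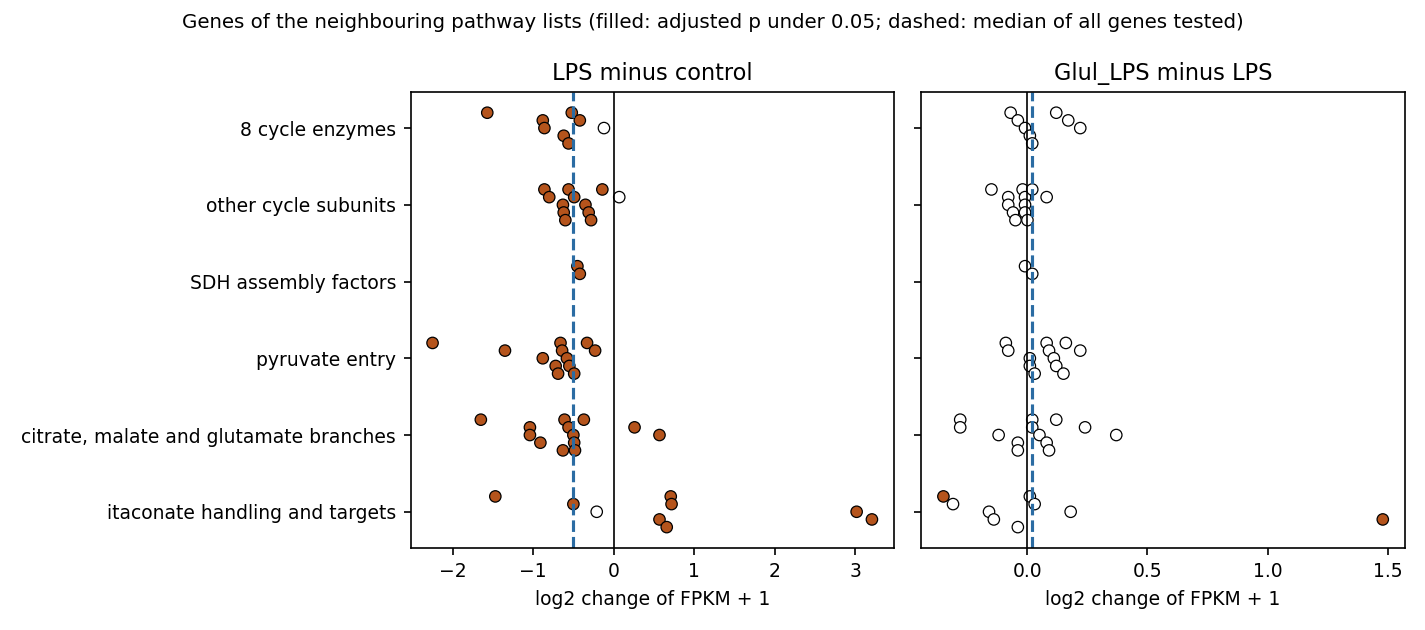
Change of each tested gene on the log2(FPKM + 1) scale (horizontal axes) by list (rows), filled where it passed the threshold, with the median of all genes tested dashed (−0.50 for LPS minus control, 0.02 for Glul_LPS minus LPS). Most points for LPS minus control lie near the dashed line, Irf1 (3.21) and Nfkbiz (3.02) lie far above it, and Slc13a3 (1.48) stands apart for Glul_LPS minus LPS.

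The genes whose pattern was most like that of Acod1 were sought over the 6 libraries among 5404 others with a mean of at least 5 FPKM, by the root-mean-square difference of centred log2(FPKM + 1). They were Sdc4, a membrane proteoglycan (0.148), Tnfsf10, the death ligand TRAIL (0.188), Slfn1 (0.201) and Gbp2, an interferon-induced GTPase (0.213). Tnfsf10 averaged 34.3 FPKM in Glul_LPS, 36.3 FPKM in LPS and 0.661 FPKM in control, and Slfn1 160 FPKM in Glul_LPS, 196 FPKM in LPS and 7.97 FPKM in control. The genes most like Idh1 were Trp53inp2 (0.0428), Hscb (0.0429), Scamp5 (0.044) and Josd1 (0.0534), with log2 changes of −1.46 to −1.57 with LPS. Hscb, a mitochondrial co-chaperone of iron-sulfur cluster assembly, averaged 8.03 FPKM in Glul_LPS, 6.68 FPKM in LPS and 21.9 FPKM in control. With 6 libraries that fall into LPS-treated and control cells, this likeness is mainly one of the size of the LPS change on the log2(FPKM + 1) scale. That scale understates the change of Tnfsf10, at 0.661 FPKM in control.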

How the data were processed

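RNA from 6 libraries of mouse bone marrow-derived macrophages was sequenced, per the labels' protocols, after library preparation with a NEBNext Ultra kit. The authors deposited 1 table of FPKM for 24752 genes. The tools named in the submitters' processing notes are HISAT2 2.1.0, HTSeq 0.6.0, CASAVA and DESeq2, with the build GRCm38. How they were ordered, which annotation was used and whether counting used strand is not given in the sources used here. A further 6 columns of values match no sample and were not used. FPKM times GENCODE M21 exon length gave whole fragments (within 0.01) for 96.51% to 97.05% of single-exon genes above 0, and from this the library totals.

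Values were analysed as log2(FPKM + 1), a scale that understates the change of low genes. A gene entered with 1 FPKM or more in 2 or more libraries, and 10962 genes formed 1 limma fit of the 3 groups (limma 3.58.1, R 4.3.3, mean-variance trend, two-sided, Benjamini-Hochberg over all genes tested, threshold 0.05, 6.27 degrees of freedom in total). "Rose" and "fell" mean past that threshold. Alternatives were pseudocounts of 0.1 and 0.5, no filter, a mean of at least 5 FPKM, TPM, quantile normalization, median centring, the 2 groups only, a replicate block, no trend, a robust spread, voom on recovered fragments and leaving out each library. Members and lists were chosen with earlier results of these data known. Named were all 9 genes, Glul, the 4 most abundant genes of each list, those past the threshold in Glul_LPS against LPS, the 4 genes most like Acod1 and like Idh1, and the most abundant marker of each cell type, with others marked in the text as named after their values were seen. Some genes of the lists are counted but not reported by name here. Sequences were read from RefSeq tables, and shared stretches of 50 bases from GENCODE transcripts.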

Additional observations from a re-analysis of the deposited data

How the results depend on the processing

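The calls of Acod1, Idh1, Idh2 and Fh1 against control held, in both comparisons, under all 18 alternatives. Of the other cycle genes, Sdha, Mdh1 and Mdh2 lost their calls against control only after median centring. After quantile normalization, which leaves a median shift of −0.126, they were still called in LPS against control, at −0.65, −0.63 and −0.39. After median centring 1 of the 8 cycle genes was called higher and 3 lower, in LPS against control as in Glul_LPS against control. Of all genes tested 34.6% were then higher and 32.2% lower in LPS against control, and 34.2% and 31.7% in Glul_LPS against control. Centring turned Cs to 0.39 and Mdh2 to 0.1 in LPS against control, and Cs to 0.36, Sdha to 0.05 and Mdh2 to 0.08 in Glul_LPS against control. Idh3a also lost its call against control after quantile normalization (−0.07, adjusted p = 0.511, in LPS against control), and it was not tested at a mean of at least 5 FPKM. Over all genes, those called higher and lower in LPS against control were 1879 and 7459, but 3044 and 4631 after quantile normalization, 3788 and 3530 after centring, and 3639 lower at a mean of at least 5 FPKM. In Glul_LPS against control they were 1850 and 7391, but 2933 and 4565, 3751 and 3471, and 3592 lower.

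In Glul_LPS against LPS the 9 genes had no call under any alternative. Over all genes 60 were higher and 61 lower, but 5 and 4 with no filter, 136 and 128 at a mean of at least 5 FPKM, 20 and 39 with only the 2 groups compared, 18 and 24 with no mean-variance trend, and 279 and 269 with voom on recovered fragments. Leaving out 1 library gave 1 to 20 higher and 0 to 37 lower. It was 1 and 0 without LPS B, 4 and 0 without LPS C, 3 and 2 without Glul_LPS C, 19 and 19 without Glul_LPS B, and 20 and 37 without either control library. Changes near 0 turned sign, with Idh2 at −0.01 and Mdh2 at −0.02 after centring. With 1 library left out in turn, Acod1 ran from −0.0037 to 0.08, Cs from −0.04 to 0.02, Idh2 from −0.02 to 0.05, Idh3a from −0.18 to 0.04, Mdh1 from −0.1 to 0.03 and Mdh2 from −0.04 to 0.07. The cause of these differences was not tested.

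Libraries of different groups with the same letter did not deviate together, with correlations of −0.0215, −0.0004286 and −0.04744 across genes. With the letter as a replicate block, 37 genes were higher and 50 lower in Glul_LPS against LPS, and Cs lost its call in Glul_LPS against control (adjusted p = 0.0711).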
